A study of Homo sapiens with 2 samples.

Results

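The 419 broad peaks described here are the peaks of 1500 bp or more in a list of 67071 JARID2 peaks from MDA-MB-231 cells. They were chosen by their length as the authors' peak caller gave it, whatever their annotation, and make up 0.625% of all peaks. The list came from chromatin immunoprecipitation followed by sequencing (ChIP-seq) in MDA-MB-231, an established human triple-negative breast cancer line with an aneuploid genome. The cells were untreated and fixed with formaldehyde, and their sonicated chromatin was precipitated with a polyclonal antibody against JARID2. A kit with a transposase fragmented and tagged the DNA, which was then amplified by PCR. The study has 1 JARID2 ChIP library and 1 input library. The peak list of the ChIP library was used, and the input library itself was not analysed here. With 1 library, no value below has a replicate check, and no test between conditions was possible.

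JARID2 is a DNA-binding partner of Polycomb repressive complex 2 (PRC2), the complex that methylates lysine 27 of histone H3, and it helps to bring PRC2 to chromatin. In embryonic stem cells it is best known from CpG-rich promoters of developmental regulators. A long peak in a ChIP-seq list is a stretch over which the caller joined reads into 1 region. Peak width therefore depends on how signal is spread and on how the caller joins it.

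To show what kind of DNA lay under broad promoter peaks, the 250 bases before the annotated start are printed for 7 genes. They are the 6 genes of largest fold enrichment for which the transcript under the peak had a length within 5% of the RefSeq gene, and PUM2, a CpG-poor gene chosen after its values were seen. Sequences are from RefSeq, build GRCh38.p14, in the direction of the gene. The peaks are on hg19, no coordinates were converted, and the RefSeq start may not be the exact start under the peak. Capitals mark CpG dinucleotides.
WDR36 (chr5:111092098-111092347, plus strand): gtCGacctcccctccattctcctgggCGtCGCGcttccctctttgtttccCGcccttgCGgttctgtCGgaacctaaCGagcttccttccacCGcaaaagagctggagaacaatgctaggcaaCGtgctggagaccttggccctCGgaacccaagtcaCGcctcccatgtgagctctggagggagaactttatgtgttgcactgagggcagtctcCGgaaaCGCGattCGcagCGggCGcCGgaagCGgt
FAM208A (chr3:56683266-56683515, minus strand): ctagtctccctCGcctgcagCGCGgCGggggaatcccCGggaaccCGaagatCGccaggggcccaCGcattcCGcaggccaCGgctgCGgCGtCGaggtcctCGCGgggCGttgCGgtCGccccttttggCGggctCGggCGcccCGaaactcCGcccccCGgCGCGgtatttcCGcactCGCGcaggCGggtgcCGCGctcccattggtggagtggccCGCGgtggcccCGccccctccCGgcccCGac
PSMD7 (chr16:74296564-74296813, plus strand): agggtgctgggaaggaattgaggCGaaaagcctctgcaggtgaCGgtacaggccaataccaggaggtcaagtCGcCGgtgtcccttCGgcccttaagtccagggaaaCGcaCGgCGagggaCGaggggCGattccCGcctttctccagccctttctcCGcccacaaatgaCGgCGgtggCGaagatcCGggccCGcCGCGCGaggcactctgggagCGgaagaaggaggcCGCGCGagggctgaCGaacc
ZNF783 (chr7:149261946-149262195, plus strand): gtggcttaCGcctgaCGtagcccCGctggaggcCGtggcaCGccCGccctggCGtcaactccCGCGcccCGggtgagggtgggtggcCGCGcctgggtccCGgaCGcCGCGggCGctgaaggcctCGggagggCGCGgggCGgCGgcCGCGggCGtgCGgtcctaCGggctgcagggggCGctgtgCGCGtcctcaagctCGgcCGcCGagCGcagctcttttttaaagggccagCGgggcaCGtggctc
NPL (chr1:182789523-182789772, plus strand): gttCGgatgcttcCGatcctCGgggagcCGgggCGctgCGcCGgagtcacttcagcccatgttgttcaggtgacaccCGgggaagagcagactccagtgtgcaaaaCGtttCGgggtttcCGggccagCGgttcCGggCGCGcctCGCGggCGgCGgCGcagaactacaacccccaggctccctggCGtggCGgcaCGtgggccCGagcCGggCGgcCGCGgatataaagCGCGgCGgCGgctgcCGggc
ZNF239 (chr10:43574617-43574866, minus strand): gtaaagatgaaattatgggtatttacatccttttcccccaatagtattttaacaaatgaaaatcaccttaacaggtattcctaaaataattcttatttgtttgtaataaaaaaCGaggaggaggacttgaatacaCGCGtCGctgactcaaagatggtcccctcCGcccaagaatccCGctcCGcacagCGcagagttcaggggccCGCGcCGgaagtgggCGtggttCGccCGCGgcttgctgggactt
PUM2 (chr2:20352254-20352503, minus strand): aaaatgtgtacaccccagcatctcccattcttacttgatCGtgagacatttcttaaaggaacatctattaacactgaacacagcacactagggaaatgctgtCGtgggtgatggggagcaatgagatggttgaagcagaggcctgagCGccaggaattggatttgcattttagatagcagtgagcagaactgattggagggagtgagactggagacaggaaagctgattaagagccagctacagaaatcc
The first 6 genes had 15 to 37 CpGs in these 250 bases, and PUM2 had 3. PUM2 was picked as CpG-poor, so this contrast does not tie CpG count to peak strength. FAM208A, named TASOR in RefSeq, encodes a subunit of the HUSH silencing complex, and its 250 bases were 76.4% G or C. WDR36 encodes a protein of ribosomal RNA processing, and its sequence held 20 CpGs. ZNF239, a zinc finger gene, had 47.2% G or C but a CpG count 1.08 times that expected from its base composition. PSMD7 encodes a subunit of the proteasome lid, ZNF783 a zinc finger protein, NPL an enzyme of sialic acid breakdown, and PUM2 an RNA-binding repressor of translation. The letters GGGCGG (GC box), on either strand, were found in all 6 of the first sequences and not in PUM2. The letters TCCCGC (E2F core) were found in WDR36, PSMD7, ZNF783 and ZNF239. The letters CCGGAAG (ETS core) were found in WDR36 and ZNF239. A match of letters is a description of the sequence, not evidence of a binding site.

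The broad peaks were 1500 to 6074 bp long, with a median of 1723 bp, and 332 of the 419 were under 2000 bp. Only 11 reached 3000 bp. Together they covered 778578 bp, which is 2.04% of all peak bases, and held 27578 reads, called tags, which is 2.76% of all tags in peaks. A broad peak held a median of 56 tags (quartiles 47 to 68, range 34 to 463), and a narrower peak a median of 12. Values ran on across the length limit. The peaks just inside the limit were given to HNRNPR at 1500 bp with 45 tags, TNIP1 at 1501 bp with 38 tags and AL139139.1 at 1502 bp with 45 tags. Those just outside were given to ACP6, 1 bp under the limit, with 49 tags, CTD-2154H6.1 at 1498 bp with 47 tags and RP11-782E2.2 at 1498 bp with 37 tags. Tags and lengths on both sides of the limit were thus nearly the same.

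**Figure D1:**
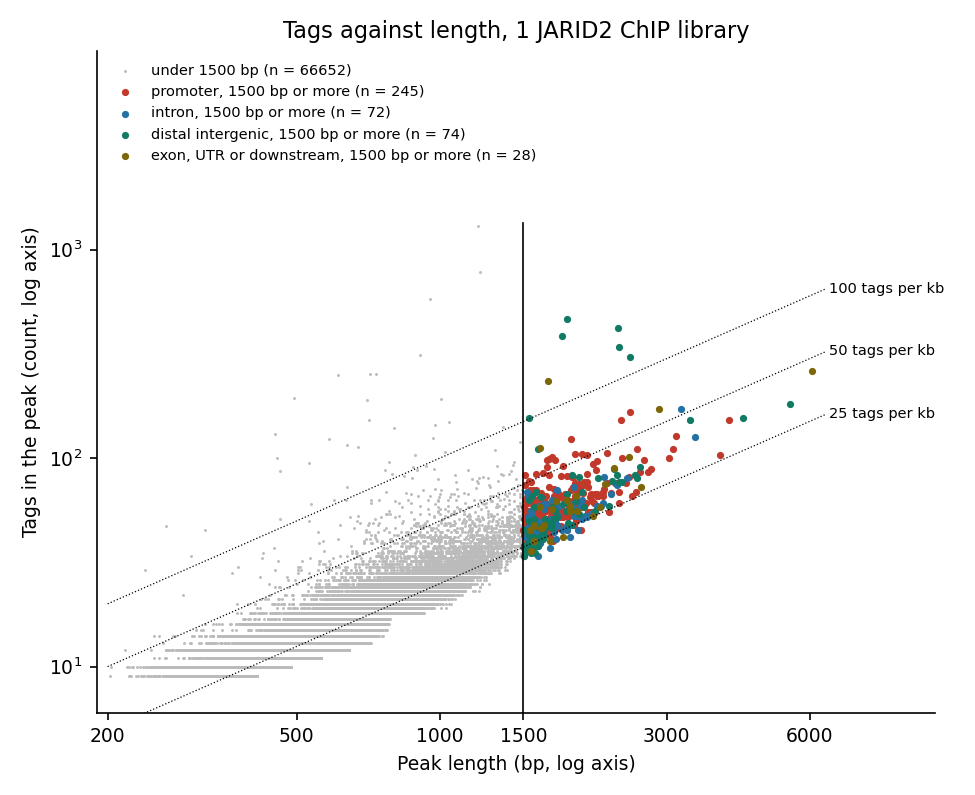
Tags in a peak against its length, both on log axes, for all 67071 peaks of the 1 JARID2 ChIP library. Grey points are the 66652 peaks under 1500 bp, coloured points the 419 broad peaks by annotation class, and dotted lines 25, 50 and 100 tags per kb. Most broad peaks continue the cloud of narrower peaks between 25 and 50 tags per kb, and a few intergenic ones lie above 100.

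Tags per kb, the tag count divided by the peak length, had a median of 31.0 in broad peaks (95% interval of the median 30.4 to 32.0, quartiles 27.5 to 36.3). The 66652 narrower peaks had a median of 24.7 (quartiles 22.7 to 27.5). By length band the medians were 24.7 under 500 bp, 24.3 from 500 to under 750 bp, 25.8 from 750 to under 1000 bp and 27.1 from 1000 to under 1500 bp. Density was thus similar in the bands under 750 bp and higher in each longer band. Of the broad peaks, 387 (92.4%) had more tags per kb than the median of all peaks. These intervals, like all others here, cover counting error or the spread over peaks of 1 library only, since PCR copies are not independent molecules.

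The higher density held against the list as a whole but not against narrower peaks chosen by tag count or by FDR. The middle 90% of broad peaks held 38 to 110 tags. The 853 narrower peaks with such tag counts had a median of 38.8 tags per kb, against 30.8 for the 389 broad peaks in that range. At equal tags a shorter peak is denser by construction. Among peaks with a false discovery rate (FDR, the authors' percent for each peak) of at most 5%, the medians were 36.5 in 116 broad and 42.4 in 718 narrower peaks. This limit kept 27.7% of broad but 1.08% of narrower peaks, and FDR comes from the same peak call as tags and length. Neither comparison can therefore show how density goes with width, and no conclusion is drawn from them. Within the broad peaks, density changed little with length (Spearman's rho 0.15, Pearson's r 0.09 over 419 peaks of 1 library).

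The fold enrichment, the authors' ratio of ChIP signal to the caller's background at a peak, went the other way. Its median was 5.10 in broad peaks (95% interval 4.87 to 5.31) and 5.96 in narrower peaks, and 289 of the 419 broad peaks were below the median of all peaks, 5.95. By length band the medians were 6.11 under 500 bp, 6.06 from 500 to under 750 bp and 5.34 from 750 to under 1000 bp. From 1000 to under 1500 bp it was 5.25, which lies within the broad interval. The lower fold is thus not called particular to broad peaks. In spite of the lower fold, broad peaks had lower FDR values. FDR was at most 5% in 116 broad peaks (27.7%, exact 95% interval 23.5 to 32.2), beside 1.24% of all peaks. From 1000 to under 1500 bp the share was 11.9%. FDR was 0 in 42 broad peaks (10.0%), beside 0.377% of all peaks. At the other end, 79 broad peaks (18.9%) had an FDR above 40%, as did 70.6% of narrower peaks. Length, tags and FDR come from the same peak call, and the peaks were chosen by length, so these gaps are descriptions and nothing is read from them.

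Broad peaks lay mostly at promoters. The annotation calls a peak a promoter peak up to 3 kb away from the start of a transcript (TSS). The promoter class held 245 of 419 broad peaks (58.5%, exact 95% interval 53.6 to 63.2) and 20.3% of narrower peaks. Introns held 72 (17.2%) of the broad and 37.3% of the narrower, and distal intergenic sequence 74 (17.7%) of the broad and 36.7% of the narrower. The remaining broad peaks were downstream of a gene (11), in a 3′ UTR (9), in an exon (7) or in a 5′ UTR (1). The promoter share rose over the length bands, and from 1000 to under 1500 bp it was 42.6%.

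**Figure D2:**
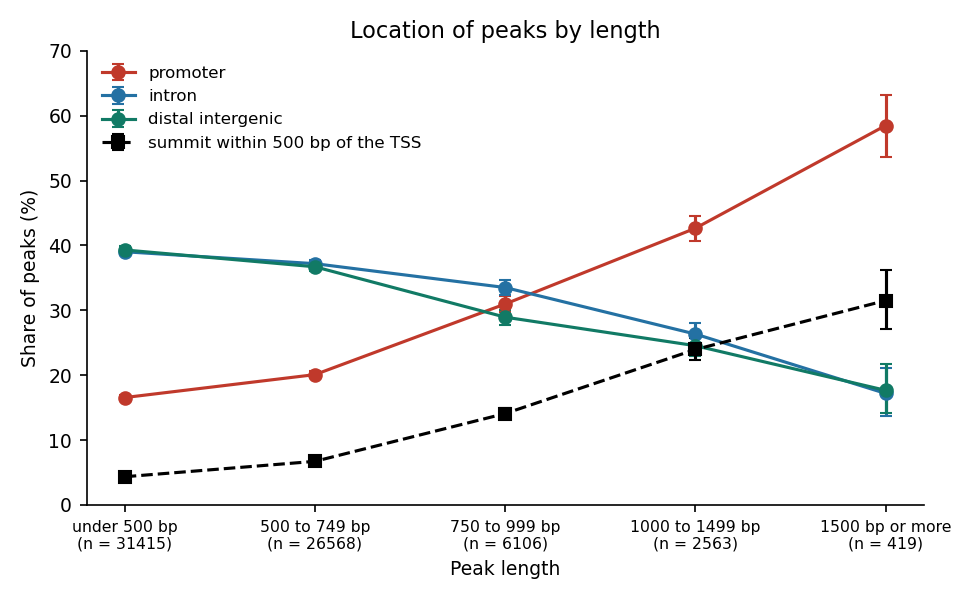
Share of peaks (%) in the promoter, intron and distal intergenic classes and share with a summit within 500 bp of a TSS, by peak length, in the 1 JARID2 ChIP library. Bars are exact 95% binomial intervals. The promoter share is 58.5% at 1500 bp or more and 20.3% over all narrower peaks, while intron and intergenic shares fall to 17.2% and 17.7%.

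A long region covers a TSS more easily than a short one, so the summit, the point of most reads, gives a second view. The summit was within 500 bp of a TSS in 132 broad peaks (31.5%) and in 6.94% of narrower peaks. It was within 3 kb in 58.9% and 20.2%. The gap in location was thus present at the summit too. The peak body reached over a TSS in 203 broad peaks (48.4%, 43.6 to 53.4) and 5.20% of narrower peaks.

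Narrower peaks in the same range of 38 to 110 tags were at promoters more often still. Within this range their median was 44 tags, and that of the broad peaks 56. The promoter share was 69.6% (66.4 to 72.7) in those 853 narrower peaks and 61.2% (56.1 to 66.1) in the 389 broad peaks of the range. Summits within 500 bp of a TSS made up 51.9% of the same narrower peaks. At an FDR of at most 5% the promoter shares were 69.8% of 116 broad peaks (60.6 to 78.0) and 70.9% of 718 narrower peaks (67.4 to 74.2), with overlapping intervals. The promoter location was therefore shared with narrower peaks of many tags and is not called particular to broad peaks.

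Where a broad peak covered a TSS, its summit was farther from it. The median absolute distance was 369 bp in 203 broad peaks, with summits from 1445 bp before to 1971 bp after the start, and 160 bp in 3465 narrower peaks. The longer region allows the larger distance. Summits lay in the middle 50% of the region in 62.5% of broad peaks (57.7 to 67.2), 74.6% of peaks from 1000 to under 1500 bp, 76.3% of peaks from 750 to under 1000 bp and 98.7% of peaks under 500 bp. The share was thus lower in each of these longer bands. Broad promoter peaks had a median of 32.1 tags per kb and a fold of 5.40, and 81 of 245 (33.1%) had an FDR of at most 5%. Broad intron peaks had a median of 28.3 tags per kb and broad intergenic peaks 29.7. Of each of these classes 13 peaks had such an FDR, 18.1% of the intron and 17.6% of the intergenic peaks. For narrower peaks the shares were 3.77% at promoters, 0.274% in introns and 0.416% in intergenic sequence.

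The largest fold enrichment of any broad peak was in JARID2, the gene of the precipitated protein. The peak covered exon 14 of 18 (chromosome 6, 15512274 to 15513962, hg19) and held 235 tags over 1689 bp (95% Poisson interval 206 to 267 tags). Its fold was 91.83 and its FDR 0, and it ranked as number 5 by fold among all peaks. JARID2 had 14 narrower peaks, and 7 of them also had an FDR of 0, with folds from 25.01 to 137.44. This peak was inside the gene and 10686 bp from the TSS it was given.

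Of the 25 broad peaks with a fold above 10, 22 were at promoters. The promoter share of narrower peaks with such a fold was not computed. At an FDR of 0, 33 of 42 broad and 172 of 211 narrower peaks were at promoters. A promoter location of strong peaks is thus not called particular to broad peaks. WDR36 led the promoters with 97 tags over 2146 bp (chromosome 5, 110427094 to 110429239) and a fold of 25.99. Its interval of 36.7 to 55.1 tags per kb lay above the broad median of 31.0. HMGXB3, a gene for a protein with an HMG box, had 98 tags over 1749 bp and a fold of 21.6, with the region 1732 bp from the TSS. MFAP3L, a gene for a membrane protein, had 84 tags over 1597 bp and a fold of 16.63. LIPE, the gene of hormone-sensitive lipase, had 81 tags over 1903 bp and a fold of 16.62. All 4 peaks had an FDR of 0.

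The next promoters by fold were those of FAM208A, MDC1, BUB3, PSMD7, DLGAP4 and RPP25. FAM208A had 124 tags over 1888 bp and a fold of 15.94. MDC1, which encodes a mediator of the DNA damage checkpoint, had 167 tags over 2508 bp (66.6 per kb) and a fold of 14.13. It was the promoter with the most tags per kb among broad peaks. BUB3, a spindle checkpoint gene, had 88 tags over 2129 bp and a fold of 12.67. PSMD7 had 43 tags over 1506 bp and a fold of 12.36. It had fewer tags than the broad median of 56 in spite of its high fold. DLGAP4, a gene for a scaffold protein of synapses, had a fold of 11.68, and RPP25, which encodes a subunit of ribonuclease P, a fold of 11.64, each with 66 tags.

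Non-coding names were also among the strongest. The region named CoTC_ribozyme (chromosome 11, 5245606 to 5247534), an RNA element of the beta-globin locus, held 105 tags and had a fold of 23.84. The region beside MIR92B, a microRNA gene, ended 29 bp from its start, held 71 tags and had a fold of 15.89. The region nearest LINC00638, a long non-coding RNA gene, was 4386 bp from its start and had a fold of 14.55, the highest of the broad intergenic peaks. The annotation gives each peak the nearest transcript, so a name does not show which gene the region serves.

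**Figure D3:**
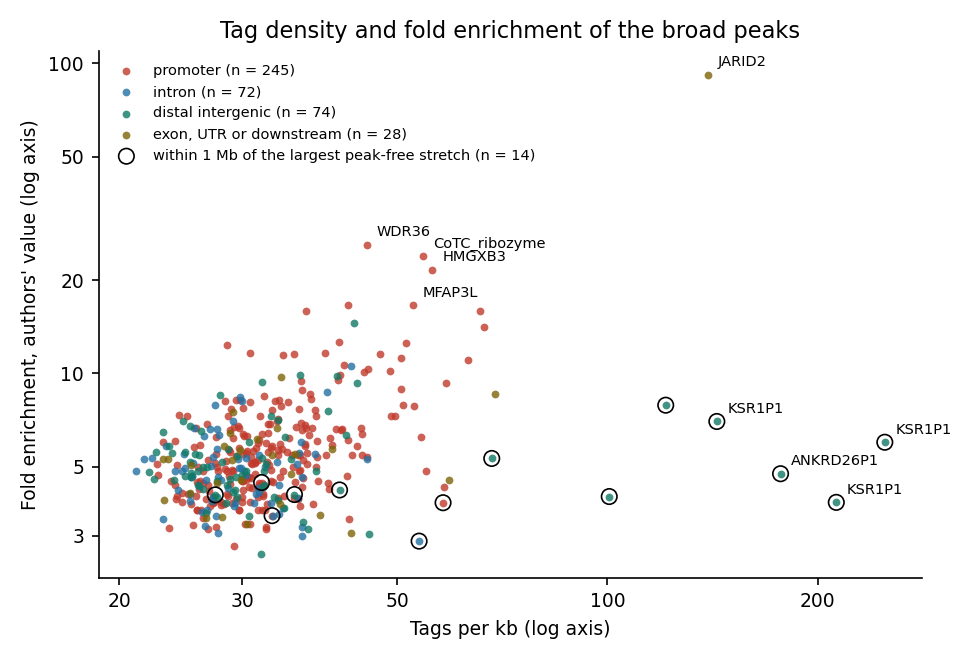
Fold enrichment (the authors' value, log axis) against tags per kb (log axis) for the 419 broad peaks of the 1 JARID2 ChIP library, coloured by annotation class. JARID2 is high on both axes (91.83 and 139), promoters with folds above 10, such as WDR36, lie between 28.6 and 66.6 tags per kb, and the circled peaks beside large peak-free stretches reach up to 249 tags per kb at folds under 8.

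The broad peaks of longest reach were a mixed group. The longest was given to RP11-326G21.1 (chromosome 1, 145008591 to 145014664), with 261 tags over 6074 bp, a fold of 3.07 and an FDR of 47.16%. IGKV2D-40, an immunoglobulin kappa variable segment, had 182 tags over 5469 bp, a fold of 4.00 and an FDR of 0. KCNQ5, a voltage-gated potassium channel gene, had the longest promoter peak. It held 153 tags over 4054 bp with a fold of 6.65 and an FDR of 0. The promoter peak of the histone gene HIST1H2BJ was 3882 bp long, with 104 tags, a fold of 3.16 and an FDR of 47.09%. UQCC1, an assembly factor of mitochondrial complex III, had 127 tags over 3146 bp, a fold of 5.88 and an FDR of 1.12%. Length alone thus went with FDR values from 0 to over 47%. Within the broad peaks, fold and length had a Spearman's rho of -0.09.

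The peaks with the fewest tags per kb were introns and intergenic regions. TXNDC16 had 34 tags over 1608 bp in intron 7 of 20, or 21.1 per kb (14.6 to 29.5). NPAS2, a clock transcription factor gene, had 21.7, C9orf135 22.1, LPP 22.3 and RP11-244O19.1 22.5 tags per kb. Their FDR values were 37.72 to 46.44%, so these were weakly supported peaks.

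Among broad intron peaks, 17 of 72 (23.6%, 14.4 to 35.1) were in a first intron. The share of narrower intron peaks, 20.7%, lies in that interval. TIMP2, the gene of a metalloproteinase inhibitor, had the largest fold of this class, 10.59, with 66 tags over 1536 bp in intron 4 of 4 and an FDR of 0. STK40, a kinase-like gene, followed with a fold of 8.73 and 70 tags, also at an FDR of 0. RP1-90L14.1 had a fold of 8.40, BCAR3 one of 8.15 and SCGB2B2 one of 7.92. In exons, ZEB2, a transcription factor of the epithelial-mesenchymal transition, had 66 tags over 1938 bp of exon 8 of 10, with a fold of 9.71 and an FDR of 0. TCHH, the gene of the hair follicle protein trichohyalin, had 172 tags over 2898 bp of its last exon, with a fold of 4.52 and an FDR of 0. RAPGEF6 had 56 tags in exon 23 of 28 and a fold of 6.42. Of the 7 broad exon peaks, JARID2, ZEB2, TCHH and RAPGEF6 had an FDR of at most 5%.

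Broad intergenic peaks after LINC00638 were led by a Y_RNA copy on chromosome 20 with a fold of 9.87 and by the regions nearest MAMDC2 (9.82), IGKV2D-40 (9.35, a second region of 1747 bp) and RP11-431K24.2 (9.30). Their tag counts were 67, 63, 56 and 83. Those of the Y_RNA copy, IGKV2D-40 and RP11-431K24.2 had an FDR of at most 5%, and MAMDC2 was just above it at 5.23%.

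The highest tag densities stood apart from the rest and were mostly not at genes. On 5 chromosomes (2, 10, 16, 20 and 21), 14 broad peaks lay within 1 Mb of the largest stretch without any peak, a stretch of at least 3 Mb that on these chromosomes holds the gap at the centromere in the assembly. They made up 3.34% of broad peaks (1.84 to 5.54) and 1.07% of narrower peaks lay as near. Their median was 63.2 tags per kb, with a fold of 4.14 and an FDR of 36.9%. The other 405 broad peaks had 30.8 tags per kb and a fold of 5.14. Of the 12 broad peaks with more than 60 tags per kb, 7 were in this group.

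On chromosome 10, 4 regions nearest the pseudogene KSR1P1 held 463, 385, 341 and 304 tags. Their densities were 249, 213, 143 and 121 tags per kb, but their folds were 6, 3.84, 7 and 7.90 and their FDR values 23.89, 33.68, 35.09 and 2.67%. On chromosome 16, 3 regions nearest the pseudogene ANKRD26P1 held 420, 155 and 110 tags, with folds of 4.75, 4.01 and 5.32. High tag density here went with modest fold and mostly high FDR, unlike in JARID2, where all 3 values were strong. Without these 14 peaks the promoter share of broad peaks was 59.8% and the intergenic share 15.8%. The part that nearness to such a stretch has in these tag counts was not tested.

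Broad peaks were unevenly spread over the chromosomes. Chromosome 6 held 55 of them (1.46% of its 3778 peaks, 1.10 to 1.89), chromosome 11 held 47 (1.25%) and chromosome 20 held 31 (1.79%, 1.22 to 2.53). Chromosomes 13 and 18 held none of 1603 and 1035 peaks, which by the exact 95% interval allows up to 0.230% and 0.356%. Chromosomes X, 15 and 22 held 1 each. Chromosomes with a larger broad share also had longer and denser narrower peaks. Across 23 chromosomes without Y, the broad share and the median length of narrower peaks had a Spearman's rho of 0.82 (Pearson's r 0.81), and for the tags per kb of narrower peaks rho was 0.91 (r 0.85). With the fold of narrower peaks rho was -0.74. These are descriptions of 1 library, whose chromosomes share depth and peak calling. The cells are aneuploid, and the values were not corrected for copy number.

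**Figure D4:**
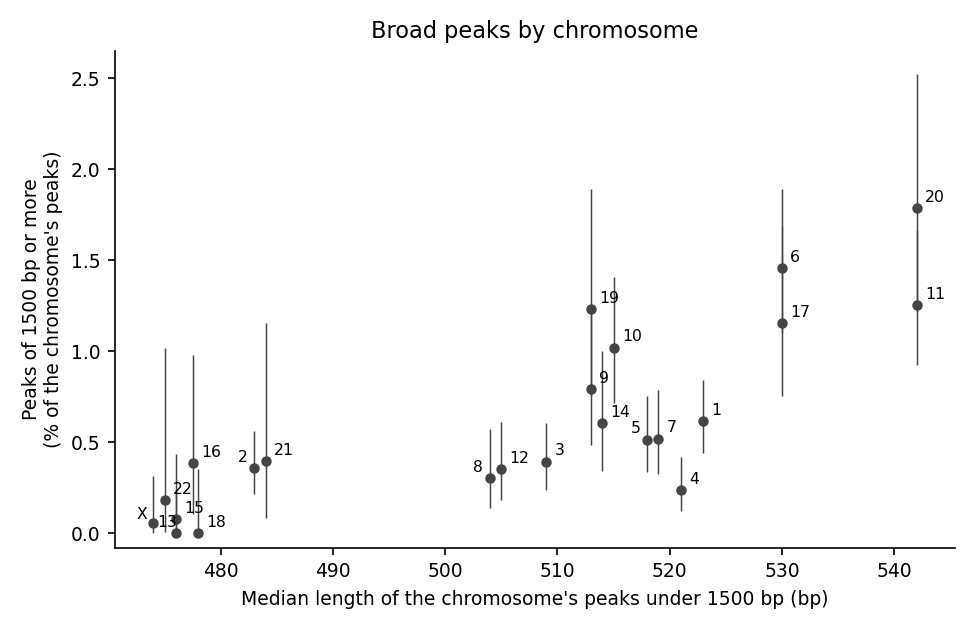
Share of a chromosome's peaks that are 1500 bp or longer (%) against the median length of its narrower peaks (bp), 1 point per chromosome without Y, in the 1 JARID2 ChIP library. Bars are exact 95% binomial intervals. Chromosomes 20, 6, 11 and 17 are high on both axes, and X, 13, 15, 18 and 22 are low on both.

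Within chromosomes, 152 of the 311 windows of 10 Mb with a peak had a broad one. The window with the most was 30 to 40 Mb of chromosome 6, which includes much of the major histocompatibility complex, with 19 broad of 237 peaks (8.02%, 4.90 to 12.24). Its narrower peaks were also longer (median 689 bp) and denser (27.9 tags per kb) than the 509 bp and 24.7 of all narrower peaks. The window, chosen after its values were seen, held MDC1, the bromodomain gene BRD2, the cell cycle inhibitor CDKN1A, the kinase gene PIM1, the Hippo pathway factor TEAD3 and both regions of FKBP5, a chaperone gene. CDKN1A had 110 tags over 2598 bp with a fold of 4.66 and an FDR of 3.16%. PIM1 had 86 tags over 2747 bp with a fold of 4.74, and BRD2 had 86 tags over 2637 bp with a fold of 5.58. Of these 19 peaks 12 were at promoters and 6 had an FDR of at most 5%, beside 58.5% and 27.7% of all broad peaks. These small counts do not set the window apart from other broad peaks. Next were 60 to 70 Mb of chromosome 11 with 14 of 361 peaks and 30 to 40 Mb of chromosome 20 with 13 of 265. None of the 14 on chromosome 11 had an FDR of at most 5%.

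Broad peaks also had other peaks, counted at any length, near them. Another peak lay within 10 kb of 213 broad peaks (50.8%, 45.9 to 55.7) and of 43.7% of narrower peaks. Within 1 kb the shares were 10.0% (7.32 to 13.3) and 7.61%, which lies in that interval. At an FDR of at most 5% the shares within 10 kb were 51.7% of broad (42.3 to 61.1) and 52.4% of narrower peaks (48.6 to 56.1). In the range of tag counts used above they were 50.6% (45.6 to 55.7) and 46.9% (43.5 to 50.3). In both comparisons the intervals overlap, so near neighbours are not called particular to broad peaks. In all, 17 gene names had 2 or more broad peaks. All 4 peaks given to UNC5CL on chromosome 6, a gene for a death domain protein, were broad and none was at its promoter, with 80, 49, 56 and 101 tags and folds of 3.16 to 5.72. None of them had an FDR of at most 5%. AHNAK, a gene for a very large scaffold protein, had 2 broad regions of 55 and 66 tags with folds of 4.45 and 4.23. LAMB1, a laminin gene, had 1 at its promoter (48 tags, fold 5.68) and 1 annotated in a 3′ UTR (75 tags, fold 6.67, FDR 0). PRKAG2, a subunit gene of AMP-activated kinase, had 2 annotated in intron 15 of 15, CYP24A1, the vitamin D hydroxylase gene, 1 at its promoter and 1 at 24948 bp, and HRH1, a histamine receptor gene, 2 annotated in intron 1 of 1.

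The broad peaks were given to 397 names, and 303 peaks (72.3%, 67.8 to 76.5) to a protein-coding gene, beside 45.1% of narrower peaks. Narrower peaks with 38 to 110 tags were given to such a gene in 74.4% (71.4 to 77.3). For the broad peaks in that range it was 73.3% (68.6 to 77.6), with overlapping intervals. The 419 broad peaks named 289 protein-coding genes, which is 1.44% of 20037 such genes and 2.56% of the 11278 with any peak. A broad promoter peak was found at 201 genes. For 91 of the 289, the broad peak was the only peak of the gene. Pseudogenes took 4.77% of broad and 13.4% of narrower peaks. Of the 3802 peaks given to small RNA genes transcribed by RNA polymerase III, 7 were broad (0.184%, 0.0741 to 0.379), beside 0.625% of all peaks. Of the 946 given to microRNA genes 4 were broad (0.423%, 0.115 to 1.08), an interval that includes the share of all peaks. These were given to MIR3143, MIR3164, MIR5685 and MIR92B.

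The gene lists are read beside the 1.44% of all protein-coding genes that had a broad peak. Of 14 genes for PRC2 subunits and partners, 12 had a peak and 1, JARID2 itself, a broad one (7.14%, 0.181 to 33.9). Of 31 PRC1 genes 23 had a peak and 1 a broad one, BCOR, a corepressor of variant PRC1, with 47 tags, a fold of 4.85 and an FDR of 39.46% (3.23% of the list, 0.0816 to 16.7). None of 39 HOX genes had a broad peak, which by the exact 95% interval allows up to 9.03%, and 6 had any peak. All 3 intervals include 1.44%, so these counts of 0 or 1 do not set the lists apart from other genes.

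Hippo genes gave 2 broad peaks of 30 genes, both at promoters and both with an FDR of 0. The share was 6.67%, and its interval, 0.818 to 22.1, includes the 1.44% of all protein-coding genes. TEAD3, a DNA-binding partner of YAP, had 92 tags over 1815 bp and a fold of 11.24, and STK3, the kinase MST2, had 84 tags over 2044 bp and a fold of 9.55. Of 63 cell cycle and replication genes 4 had a broad peak (6.35%, 1.76 to 15.5), beside 1.44% of all protein-coding genes. Of the 40 with any peak this was 10% (2.79 to 23.7), beside 2.56%. The list was chosen with results of these data known, so this is a description. The replication factor gene MCM10 (fold 6.86, FDR 0.31%) and RBL1, the gene of the pocket protein p107 (fold 6.61, FDR 0.27%), had theirs at promoters. Those of the phosphatase gene CDC25B and of E2F2 were downstream and in an intron, with FDR values of 37.66 and 42.88%. The intervals are wide because the counts are small.

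Among other lists, 2 of 40 genes of mRNA processing had a broad peak, HNRNPF (fold 8.08) and HNRNPD (4.51), which is 5% of the list (0.611 to 16.9). Among cytosolic ribosomal protein genes, RPL37 had a broad peak with a fold of 5.50 and an FDR of 1.04%, and RPL6 one with a fold of 4.85 and an FDR of 40.43%. Of 73 histone genes 2 had one, HIST1H4C (6.58) and HIST1H2BJ (3.16), which is 2.74% (0.334 to 9.55). Of 509 numbered zinc finger genes 7 had one (1.38%, 0.555 to 2.81), all at promoters, with the largest folds in ZNF783 (11.56), ZNF239 (10.32), ZNF446 (5.77) and ZNF503 (5.61). The intervals of these 3 shares include the 1.44% of all protein-coding genes. No broad peak was given to 37 hypoxia genes, 43 histone lysine methylation genes, 41 chromatin remodeller genes, 77 mitochondrial ribosomal protein genes or 390 olfactory receptor genes. Such a count of 0 allows up to 0.941% of the olfactory receptor genes and up to 9.49% of the hypoxia genes, beside 1.44% of all protein-coding genes. For the hypoxia, histone lysine methylation, chromatin remodeller and mitochondrial lists the limit is above that share, so a 0 does not set them apart. Of the olfactory receptor genes 138 had a peak of some length. Among these 138 a count of 0 allows up to 2.64%, beside 2.56% of all protein-coding genes with any peak. Among genes with a peak, the 0 thus does not set the olfactory receptor genes apart either.

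The sequences printed for WDR36 and the others belong to a wider group. A TSS lay under a broad peak at 173 protein-coding genes, and 147 of them had a RefSeq promoter window of 300 bases, 250 before and 50 after the start. Their median G+C content was 64.3%, beside 65% for 2156 genes with a narrower peak over the TSS and 62.7% for all 15843 windows. The ratio of observed to expected CpG was 0.857, 0.845 and 0.763. A ratio of at least 0.6 was found in 86.4% (79.8 to 91.5) of the genes under broad peaks and 83.0% of those under narrower ones, with 65.8% of all windows. Most genes with a TSS under a broad peak were thus CpG-rich, as were those with a TSS under a narrower peak. For 79 genes the transcript under the peak had the length of the RefSeq gene within 5%, and there the share was 92.4% (84.2 to 97.2). The 929 genes under narrower peaks with such a transcript had 88.4% (86.1 to 90.4), so the intervals overlap.

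**Figure D5:**
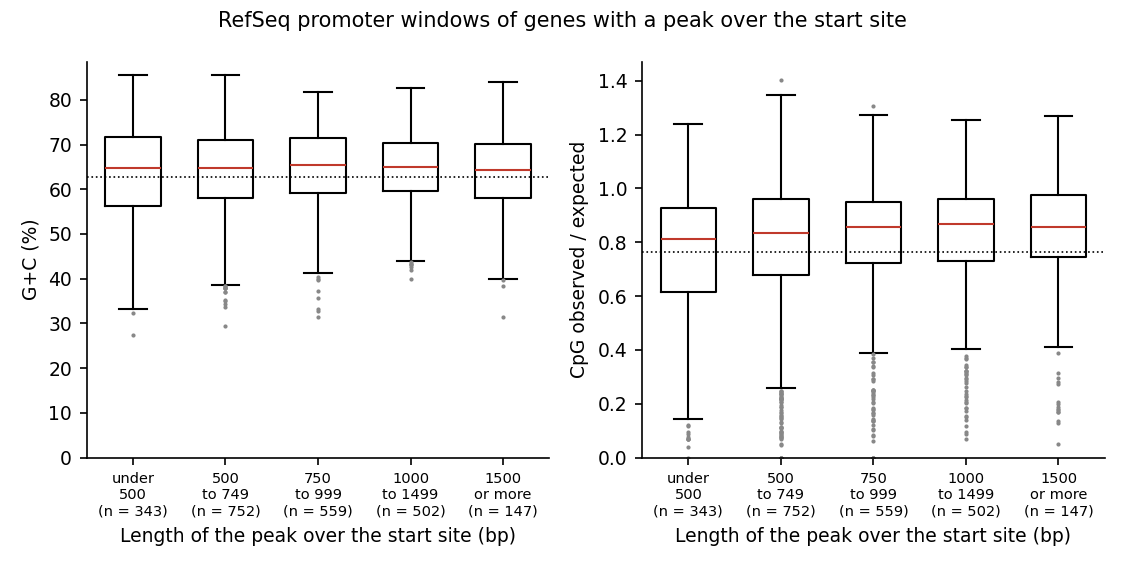
G+C content (%, left) and ratio of observed to expected CpG (right) of RefSeq promoter windows of 300 bases, by length of the peak over the start site. Boxes are quartiles with the median in red, whiskers reach 1.5 box heights, and dotted lines are the medians of all protein-coding windows (62.7% and 0.763). The boxes for broad peaks overlap those of every narrower band.

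Of the 79 genes with a transcript of RefSeq length, those on chromosome 8 were left out of the next comparison. The lowest ratios of observed to expected CpG were in STAT5A, FKBP5, SET and PUM2. They were 0.056, 0.145, 0.231 and 0.236 in the 250 bases before the start. These 4 genes were chosen after their values were seen. Another gene began within 1 kb in the opposite direction at 25.9% (19.0 to 33.7) of the genes under broad peaks, 23% of those under narrower peaks and 19.9% of all. NPRL2, a gene of the GATOR1 complex that restrains growth signalling, was such a case, with a neighbour at 87 bp, 94 tags over 2096 bp and a fold of 10.11.

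Motif letters were searched on both strands of the same windows. GGGCGG was in 66.0% of windows under broad peaks, 68.1% under narrower peaks and 58.5% of all. TCCCGC was in 43.5%, 42.6% and 35.1%, and overlaps other GC-rich letters. CCGGAAG was in 21.8%, 18.4% and 14.2%, and CACGTG (E-box) in 14.3%, 13% and 8.88%. GCGCATGCG (NRF1 core) was in 6.12% (2.84 to 11.3), 3.90% and 2.76%, and AAGATGGCG (YY1 core) in 4.76%, 3.39% and 2.74%. TATAAA was in 5.44%, 5.19% and 9.63%, CCAAT in 35.4%, 34.1% and 36.4%, and TGACGTCA in 2.72%, 2.55% and 2.59%. For each motif searched, the share under narrower peaks lay within the interval of the share under broad peaks.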

How the data were processed

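The deposited table lists the peaks of the JARID2 ChIP library on hg19. The tools named per the submitters' processing notes are ChIPseeker, MACS2, MACS, Bowtie 0.12.8 and bcl2fastq. The caller version behind the list, its thresholds, its duplicate filter and how it treated the input: not given in the sources used here. Per the file headers, the deposited tag value is a raw count per peak, fold enrichment is a linear ratio and FDR is a percent. A deposited score column with a lost header was read as −log10 p times 10 and not used in the text. The authors gave each peak its nearest transcript and class. The list gives tags in peaks alone, so the depth of the library is unknown.

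Tags per kb, shares (exact Clopper-Pearson intervals), medians (binomial order-statistic intervals) and tag counts (exact Poisson intervals), all at 95%, were computed with Python 3.11.15, pandas 2.3.3 and SciPy 1.17.1. Of the intervals, only those of medians were tested on simulated data. Genes were looked up in RefSeq (GRCh38.p14) by Ensembl identifier first, then by symbol, then by unique synonym. RefSeq gave biotypes, promoter sequences and neighbouring genes. Of 419 broad peaks, 349 matched; 3 names had been turned into dates by a spreadsheet and were left unmatched. No hg19 sequence was used, so the base composition of the peaks themselves was not analysed here.

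The members, the gene lists and all choices were made with earlier results of these data known. Named peaks are the 10 with most tags, length, fold or tags per kb, the 5 with fewest tags per kb, the 10 protein-coding promoters and 5 introns and 5 intergenic regions of largest fold, the 3 on each side of the limit, up to 10 genes with several broad peaks, and up to 4 per gene list; the text says where others were picked after their values were seen. Some results that this rule picks are not reported here. Alternatives were other length limits, an FDR limit, merged neighbours, another promoter reach, summits, other narrower peaks and removal of loci.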

Additional observations from a re-analysis of the deposited data

How the results depend on the processing

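No paired analysis was possible because the ChIP and the input are 1 library each and no peak value of the input was used. A limit of 1200 bp gave 1276 peaks, with promoters at 52.5%, an FDR of at most 5% in 20.1%, 29.3 tags per kb and 65.8% at protein-coding genes. A limit of 2000 bp gave 87 peaks, with an FDR of at most 5% in 34.5%, 32.2 tags per kb and a median fold of 4.74. Keeping peaks with an FDR of at most 5% left 116 broad ones, with promoters at 69.8%, intergenic regions at 11.2%, 36.5 tags per kb, a median fold of 7.03 and 81.9% at protein-coding genes, and narrower peaks then had 42.4 tags per kb. Merging neighbours within 1 kb gave 1871 regions, with promoters at 36.2%, intergenic regions at 29.0%, an FDR of at most 5% in 10.3%, 18.2 tags per kb (below the 24.7 of narrower regions), a median fold of 6.42 and 55.6% at protein-coding genes; merged lengths include the gaps. A promoter reach of 1 kb gave 51.8%. Against peaks of 1000 to under 1500 bp the comparison value was 27.1 tags per kb. Against narrower peaks with 38 to 110 tags it was 38.8. The order of tag density between broad and narrower peaks thus turned under the FDR limit, which kept 27.7% of broad but 1.08% of narrower peaks. Since FDR comes from the same peak call as tags and length, no conclusion is drawn from this turn. The lower values after merging and within the range of tag counts follow from how those comparisons are built. Merged lengths hold gaps, and a shorter peak with equal tags is denser. Values moved by no more than their intervals without the JARID2, EZH2 and KDM1A loci (1 broad peak fewer), with summits within 3 kb of a TSS, and, in alternatives chosen after seeing the data, without chromosome 6 (promoters 59.6%) and without peaks within 1 Mb of the largest peak-free stretch. Tag counts limit single peaks: the smallest broad peak count, 34, has a Poisson interval of 23.5 to 47.5.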
